A study of Homo sapiens with 10 samples.

Results

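The cytosolic ribosomal proteins are the protein parts of the ribosome that works in the cytoplasm. They were taken here as the protein-coding genes whose Ensembl symbol is RPL or RPS followed by a number, with an optional closing letter or digit, together with RPLP0, RPLP1, RPLP2 and RPSA. The rule found 84 of the 58302 genes listed, 52 for the large and 32 for the small subunit, and it used no measured value. RNA-Seq gave their levels in 10 libraries of 3 established human cell lines from liver tumours, with 1 library per condition, so no difference below has a replicate check and no p-value is given. SK-Hep1 cells carried a mock plasmid, PSPC1, PSPC1 with the tyrosine kinase PTK6, the mutant PSPC1-Y523F, in which the tyrosine that PTK6 phosphorylates is replaced by phenylalanine, or PSPC1-Y523F with PTK6. Mahlavu cells carried a mock plasmid, PSPC1-CT131, a C-terminal fragment of PSPC1, or Mut-NLS-CT131, the fragment with its nuclear localization sequence mutated. Huh-7 cells were left untreated or received HGF, the ligand of the MET receptor, at 10 ng/ml for 48 h. PSPC1 is an RNA-binding protein of the paraspeckle, a nuclear body built on a long non-coding RNA. All constructs were plasmids brought in by transfection, and whether a sequenced culture was a clone or a pool is not given in the sources used here.

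A ribosome holds each of its proteins in equal number, apart from the stalk proteins RPLP1 and RPLP2, which are present in more copies around RPLP0. Cells therefore make these proteins in step, and those that find no place on rRNA are broken down. Most ribosomal protein mRNAs start with a C followed by a run of pyrimidines, the 5′ terminal oligopyrimidine tract (TOP), through which mTOR and the protein LARP1 control their translation and stability. Some members also act outside the ribosome. RPL5 and RPL11 travel together with 5S rRNA and hold back the ubiquitin ligase MDM2 when ribosome assembly fails.

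The libraries held between 15245935 and 24278662 reads on genes. PSPC1 had 0 reads in SK-Hep1 mock and 7.01, 26.4, 2.28 and 70.9 FPKM in the other 4 SK-Hep1 libraries, in the order given above. FPKM are the reads of a gene per kilobase of its length, scaled to the reads of the library. In Mahlavu cells PSPC1 stood at 47.3 FPKM in mock and was lower in both libraries labelled with a construct, at 30.8 and 22.5, so directions drawn from these rest on their labels. PTK6 stood at 4.79 FPKM in SK-Hep1 mock and at 16.7 and 10.5 in the libraries that carried PTK6. In Mahlavu cells, where no PTK6 plasmid was named, it stood at 8.95 FPKM in mock and at 17.2 and 17.3 in the construct libraries. Of 10 hepatocyte markers, 9 were under 1 FPKM in each SK-Hep1 and Mahlavu library (6 to 8 had no read) and 0 of 10 in the Huh-7 libraries, where their summed level was 29648 and 29448 FPKM. The mitochondrial genome took 0.463% to 3.73% of the reads.

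The TOP tract is a feature that the choice of members did not use. RefSeq promoter entries (GRCh38.p14, 250 bases before to 50 after each annotated start) were at hand for 67 of the 84 members. A C at the start followed by at least 4 pyrimidines was found for 47 of these 67 genes (70.1%), 29 of 42 of the large and 18 of 25 of the small subunit, against 5.14% of the 27305 genes with an entry. The windows below run from 10 bases before to 20 bases from the annotated start for the members on which the results turn, 5′ to 3′ on the strand of the gene, with the pyrimidines that begin at the start in capitals. Where several starts were listed, that with the tract, then the longest run, was taken.
RPL11, chr1:23691796-23691825 (plus strand): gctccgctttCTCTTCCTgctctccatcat
RPLP0, chr12:120201092-120201121 (minus strand): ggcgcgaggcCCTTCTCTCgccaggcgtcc
RPL12, chr9:127451387-127451416 (minus strand): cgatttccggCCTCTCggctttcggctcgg
RPL31, chr2:101002279-101002308 (plus strand): ccttcgcgctCTTCCTTTCCaacttggacg
RPL39, chrX:119791611-119791640 (minus strand): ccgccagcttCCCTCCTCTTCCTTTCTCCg
RPS24, chr10:78033853-78033882 (plus strand): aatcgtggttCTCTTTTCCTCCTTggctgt
RPS19, chr19:41860245-41860274 (plus strand): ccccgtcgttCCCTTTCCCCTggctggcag
RPSA, chr3:39406710-39406739 (plus strand): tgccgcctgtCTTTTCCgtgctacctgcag

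The longest run among these was that of RPL39, with 19 pyrimidines, and RPL12 had 6. RPL6, which is described below beside RPL11, had 2 annotated starts, neither with the tract, and the one shown began at a lone T. That start lies inside the gene, whose 5′ end in the deposited positions is at 112418838. Whether the cells used it was not tested. The paralogs, later copies of a ribosomal protein gene, differed in this respect. RPL22L1 carried a tract like RPL22, while RPS27L, RPL26L1 and RPL7L1 began with a purine.
RPL6, chr12:112411423-112411452 (minus strand): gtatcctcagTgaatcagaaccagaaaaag
RPL22, chr1:6199576-6199605 (minus strand): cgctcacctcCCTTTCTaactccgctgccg
RPL22L1, chr3:170870176-170870205 (minus strand): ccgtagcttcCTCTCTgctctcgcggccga
RPS27, chr1:153990752-153990781 (plus strand): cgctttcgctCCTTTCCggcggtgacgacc
RPS27L, chr15:63157458-63157487 (minus strand): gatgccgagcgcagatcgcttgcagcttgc
RPL26L1, chr5:172958719-172958748 (plus strand): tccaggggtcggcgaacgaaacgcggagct
RPL7L1, chr6:42879606-42879635 (plus strand): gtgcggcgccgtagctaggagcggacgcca

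Short motifs were searched on both strands of the same 300 bases. The ETS motif CCGGAAGT was present in 11 of 67 members (16.4%) and 4.95% of all genes with an entry. The YY1 motif AAGATGGC was present in 7 of 67 members (10.4%) and 3.52% of all genes with an entry. The GC box GGGCGG was present in 39 of 67 members (58.2%) and 48.3% of all genes with an entry, and TATAAA in 7 of 67 members (10.4%) and 14.0% of all genes with an entry. These matches are a description of letters in a window around one annotated start, and annotated starts can lie some bases from the start a cell uses.

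The members were among the most abundant mRNAs of these cells. In each library between 67 and 72 of the 84 were above 100 FPKM, and 16 to 43 were among the 100 genes of highest FPKM. The highest mean levels over the 10 libraries were those of RPL8 (3655 FPKM), RPS2 (3548 FPKM) and RPL13A (2554 FPKM). RPLP0, the base of the stalk, reached 4027 FPKM in SK-Hep1 mock, 1137 in Mahlavu mock and 2702 in untreated Huh-7 cells. Its partners RPLP1 and RPLP2 had mean levels of 1155 and 981 FPKM. RPL41, the smallest ribosomal protein, had a mean of 2495 FPKM. RPS27A, which is made as a fusion with ubiquitin, had 596 FPKM, RPS6, the substrate of S6 kinase, 869 FPKM, and RPS3 1689 FPKM.

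At the low end stood core proteins of every ribosome. RPS10 had 3 to 17 reads per library and a mean of 0.776 FPKM, RPL17 a mean of 1.97 FPKM, RPL36A 2.12, RPL26 11.1 and RPS15A 16.1 FPKM. In GENCODE 29 each of these 5 shares coding bases on the same strand with another coding gene. The share was 92.1% for RPS10 with RPS10-NUDT3, 100% for RPL17 with RPL17-C18orf32, 94.3% for RPL36A with RPL36A-HNRNPH2, 71.0% for RPL26 and 54.6% for RPS15A, the last 2 with genes known by an Ensembl identifier. The partner genes were listed at 0 FPKM in each library, except that of RPL26, which reached at most 0.0679 FPKM. The part of these overlaps in the low values was not tested. RPS23 was also low, at 27.0, 13.9 and 94.8 FPKM in the SK-Hep1, Mahlavu and Huh-7 control libraries. Another gene on the opposite strand covers 54.1% of its coding bases, and the libraries keep no strand.

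In FPKM as deposited, which are relative to each library, ribosomal protein mRNAs were lower in Mahlavu mock than in the controls of the other lines. With 1 control library per line, differences between lines and between single libraries cannot be told apart. Between the mock libraries of Mahlavu and SK-Hep1, the median member differed by −0.64 on the log2 scale of FPKM + 1, while the median of all genes differed by 0.41. Of 81 members, 71 were lower in Mahlavu and 21 were at least 2-fold lower (9.56% of all genes were), and 1 was at least 2-fold higher (29.4% of all genes). RPSA, a small subunit protein also known as the laminin receptor precursor, differed most (2597 FPKM in SK-Hep1, 621 in Mahlavu and 2413 in Huh-7). RPLP0 followed, with a log2 difference of −1.82. Between untreated Huh-7 cells and SK-Hep1 mock the median member differed by −0.09, while the median of all genes differed by 0.40. Here 9 members were at least 2-fold higher in Huh-7 (35.2% of all genes) and 4 at least 2-fold lower (18.9%). Against Mahlavu mock the Huh-7 median was 0.59 (−0.03 for all genes), 22 members were at least 2-fold higher (21.6% of all genes) and 0 at least 2-fold lower (23.1%).

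Single members departed from the order of the rest. RPS23 was higher in Huh-7 than in Mahlavu by 2.68 and RPS12 by 2.12 (1677 against 385 FPKM). RPS23 lies at the decoding site of the small subunit. RPL26L1 went the other way, with 122 FPKM in SK-Hep1 mock, 81.1 in Mahlavu mock and 41.6 in untreated Huh-7 cells. RPS21 (1159, 1290.5 and 737 FPKM) and RPS26 (542, 214 and 225 FPKM) were lowest or near lowest in Huh-7 as well. RPL36A was the member most above SK-Hep1 mock in both other lines, but its SK-Hep1 value rests on 5 reads. The rank order of the 81 levels was alike in the 3 lines, with Spearman's rho across members of 0.937 for SK-Hep1 and Mahlavu, 0.868 for SK-Hep1 and Huh-7 and 0.859 for Mahlavu and Huh-7. These points share their gene lengths and their counting, and genes are not independent replicates.

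The share of all reads that fell on members was 7.99% in SK-Hep1 mock, 8.80% with PSPC1, 7.32% with PSPC1/PTK6, 6.47% with PSPC1-Y523F and 7.66% with PSPC1-Y523F/PTK6. In Mahlavu it was 4.38% in mock, 3.78% in the library labelled PSPC1-CT131 and 3.70% in that labelled Mut-NLS-CT131. In Huh-7 it was 6.98% without and 7.29% with HGF. In SK-Hep1 mock the large subunit took 4.96% and the small subunit 3.04% of the reads, and with PSPC1-Y523F 3.84% and 2.63%. The summed FPKM of the large subunit exceeded that of the small subunit by a ratio of 1.39 (PSPC1-Y523F) to 1.74 (untreated Huh-7). In bulk RNA, fewer cells with a transcript and less of it per cell cannot be told apart.

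**Figure D1:**
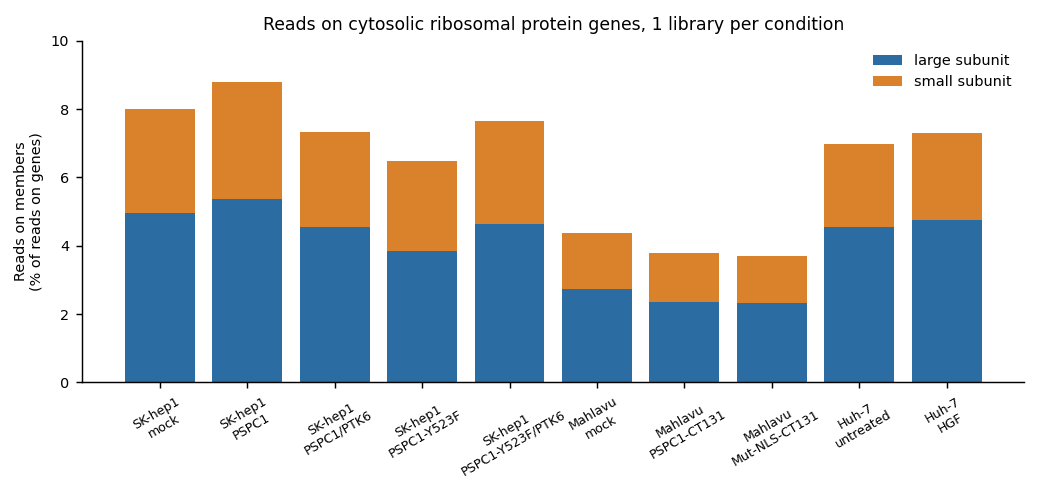
Reads on large and small subunit members as a percentage of all reads on genes, stacked, in each of the 10 libraries. The bars reach from 3.70% (Mut-NLS-CT131) to 8.80% (PSPC1), with the 3 Mahlavu libraries lowest.

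For the comparisons within a line, FPKM were quantile normalized, which gives every library the same distribution of values, and a log2 fold change was taken from the values + 1 for genes whose mean over both libraries reached 1 FPKM. Where a share of all genes is printed beside the count, a member was counted as lower or higher at a 1.5-fold difference, or at 2-fold where named. Counts of lower or higher members without such a share take any difference. These do not by themselves set the members apart from other genes, and the median of all genes is printed for those contrasts. The 4 SK-Hep1 contrasts share the mock library, as do both Mahlavu contrasts. The members sit at the top of the distribution, where the choice of scale moves their median, so each median is given a second time from read counts scaled by the TMM method, which sets 1 factor per library. In FPKM as deposited, the median of all genes was shifted by 0.15 with PSPC1/PTK6, −0.13 with PSPC1-Y523F/PTK6, −0.24 with PSPC1-CT131, 0.20 for PTK6 over PSPC1 and −0.13 between both Mahlavu constructs, and by under 0.1 in the other contrasts. Of 13 ways to scale and filter the values, the quantile-normalized one is printed unless another is named, and the other 12 are called the alternatives.

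With PSPC1 in SK-Hep1 cells, the ribosomal proteins as a group stayed near mock. The median log2 fold change was 0.06 for members, 0.00 for the large and 0.08 for the small subunit, and −0.03 for all genes, and with TMM scaling it was 0.17 for members and −0.02 for all genes, with 3 members at least 1.5-fold lower (9.26%) and 5 at least 1.5-fold higher (10.4% of all genes). Among members, 3 of 81 were at least 1.5-fold lower (8.66% of all genes tested) and 3 at least 1.5-fold higher (9.56% of all genes), both below the share of all genes. The 3 lower ones were RPL6 (−0.82), RPL11 (−0.71) and RPL26L1 (−0.62). The higher ones included RPL12 (0.64) and RPL39 (0.59), which lines the exit tunnel of the large subunit. RPL12 was at least 1.5-fold higher under each of the 12 alternatives, and the 3 lower ones were at least 1.5-fold lower under each. RPL39 stood at 349 FPKM in mock, 529 with PSPC1, 546 with PSPC1/PTK6, 500.0 with PSPC1-Y523F and 297 with PSPC1-Y523F/PTK6, with mock and PSPC1-Y523F/PTK6 both below the other libraries.

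With PSPC1/PTK6 the median was −0.06 (−0.02 large, −0.15 small, −0.04 all genes), and 5 of 80 were at least 1.5-fold lower (12.8% of all genes tested) and 1 at least 1.5-fold higher (12.4% of all genes), both below the share of all genes. RPL6 was lowest (−1.11) and the single member at least 2-fold lower (3.32% of all genes), followed by RPS23 (−0.82), RPL11 (−0.77), RPLP0 (−0.76) and RPL26L1 (−0.62), and these 5 stayed at least 1.5-fold lower under each of the 12 alternatives tried. RPL39 was the member at least 1.5-fold higher (0.68), followed by RPL22 (0.57). With TMM scaling the median moved to −0.24 against 0.00 for all genes, 66 of 80 members were lower than in mock, where 45 of 80 were with quantile normalization, 10 were at least 1.5-fold lower (12.7% of all genes) and 0 higher (15.3%). The reads on members as a share of all reads were 0.916 times those in mock.

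With PSPC1-Y523F the ribosomal proteins were lower as a group. The median was −0.22 (−0.27 large, −0.18 small) against −0.01 for all genes, −0.27 against −0.04 with TMM scaling, and between −0.29 and −0.19 under the alternatives. Of 82 members tested, 59 were lower than in mock. Among members, 10 of 82 were at least 1.5-fold lower (9.33% of all genes tested) and 1 at least 1.5-fold higher (9.33% of all genes). The lower count was 12.2% of members, close to the share of all genes. The lower ones were RPL11 (−1.08), RPL27A (−0.83), RPLP0 (−0.82), RPS29 (−0.82), RPL6 (−0.73), RPS14 (−0.65), RPL12 (−0.65), RPL9 (−0.65), RPL21 (−0.63) and RPL36 (−0.59). RPL11 was the single member at least 2-fold lower (2.46% of all genes). With TMM scaling 11 members were at least 1.5-fold lower (11.1% of all genes) and 1 higher (8.86%). RPL11, RPL27A, RPLP0, RPS29, RPL6 and RPS14 were at least 1.5-fold lower under each of the 12 alternatives. RPS14, whose loss in one copy underlies the anaemia of the deletion 5q syndrome, stood at 1558 FPKM in mock, 1303 with PSPC1, 1085 with PSPC1/PTK6, 907 with PSPC1-Y523F and 1129 with PSPC1-Y523F/PTK6, with the lowest value in PSPC1-Y523F. RPL27A stood at 1130.0 FPKM in mock, 858 with PSPC1, 926 with PSPC1/PTK6, 625 with PSPC1-Y523F and 879.7 with PSPC1-Y523F/PTK6, again lowest in PSPC1-Y523F. The member at least 1.5-fold higher was RPL36A (1.09), on 5 and 25 reads, a read ratio of 5.14 (95% interval 1.93 to 17.2). Reads on members as a share of all reads were 0.810 times those in mock, 0.776 times for the large and 0.865 times for the small subunit.

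With PSPC1-Y523F/PTK6 the median was −0.33 (−0.33 large, −0.32 small, −0.04 all genes), and −0.19 with TMM scaling against −0.01 for all genes. Lower than in mock were 65 of 81 members, and 53 of 80 with TMM scaling. Among members, 12 of 81 were at least 1.5-fold lower (7.1% of all genes tested) and 2 at least 1.5-fold higher (8.19% of all genes). The lower count was 14.8% of members with quantile normalization, above the share of all genes. RPL11 (−1.36) and RPL6 (−1.08) were at least 2-fold lower (1.59% of all genes), and RPL21 (−0.93), RPL38 (−0.90), RPL26L1 (−0.87), RPL37 (−0.79) and RPL22L1 (−0.65) followed, and these 7 were at least 1.5-fold lower under each alternative. The other 5 were RPL23 (−0.64), RPS21 (−0.63), RPL31 (−0.61), RPS27 (−0.61) and RPL34 (−0.59). With TMM scaling 7 members were at least 1.5-fold lower (6.96% of all genes) and 3 higher (9.9%). The higher ones were RPL28 (0.63) and RPL36A (0.89, on 5 and 22 reads) with quantile normalization. With TMM scaling they were RPL28 (0.83), RPL18 (0.66) and RPS19 (0.66). RPL28 stood at 707 FPKM in mock, 999.8 with PSPC1, 1018 with PSPC1/PTK6, 829 with PSPC1-Y523F and 1146 with PSPC1-Y523F/PTK6, highest in this library. In this contrast the fold changes of members went with the GC content of their transcripts (Spearman's rho 0.367 over 81 members, 0.259 over all genes). The median was −0.38 for the members under the median GC content of 49.3% and −0.12 for the others. When a fit on the length and GC content of all genes was subtracted, the member median was −0.31.

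RPL11 and RPL6 were the members lowest across the SK-Hep1 transfectants. RPL11 (ENSG00000142676, chromosome 1, 23691779 to 23696425, plus strand, GRCh38) stood at 974 FPKM in mock, 596 with PSPC1, 550.1 with PSPC1/PTK6, 469 with PSPC1-Y523F and 372 with PSPC1-Y523F/PTK6. All 4 transfectants were below mock, with log2 fold changes of −0.71, −0.77, −1.08 and −1.36 in that order. The counts were 15218 reads in mock and 6512 with PSPC1-Y523F/PTK6, a ratio per read of the library of 0.382 (95% interval 0.371 to 0.393), where the interval covers counting error only. RPL6 (ENSG00000089009, chromosome 12, 112405190 to 112418838, minus strand) stood at 1041 FPKM in mock, 609 with PSPC1, 474 with PSPC1/PTK6, 642 with PSPC1-Y523F and 503 with PSPC1-Y523F/PTK6, again with mock highest. Its log2 fold changes were −0.82, −1.11, −0.73 and −1.08. Under the 12 alternatives, both genes were at least 1.5-fold lower than in mock in all 4 contrasts. Since these share the mock library, they are not separate observations of the same difference. RPL11 caps the central protuberance of the large subunit with RPL5, while RPL6 lies on the solvent side.

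RPL5, the partner of RPL11 in the complex with 5S rRNA, took another course. RPL5 (chromosome 1, 92832025 to 92841924) stood at 809 FPKM in mock, 916 with PSPC1, 670.2 with PSPC1/PTK6, 689.8 with PSPC1-Y523F and 577 with PSPC1-Y523F/PTK6, on both sides of mock. The ratio of RPL11 to RPL5 was 1.20 in SK-Hep1 mock and 0.650, 0.821, 0.680 and 0.645 in the transfectants, and no scaling of a library enters such a ratio. In Mahlavu it was 1.53 in mock, 1.62 in the library labelled PSPC1-CT131 and 1.28 in that labelled Mut-NLS-CT131, and in Huh-7 0.906 and 0.95. Against the median member of its own library, RPL11 stood at 0.19 in SK-Hep1 mock and between −0.72 and −0.48 in the transfectants on the log2 scale, while RPL5 lay between −0.19 and 0.09 in all 5 libraries. In the same order of transfectants, MDM2, the ligase that RPL5 and RPL11 bind, differed from mock by −0.43, 0.87, −0.08 and 0.24. CDKN1A, an inhibitor of cyclin-dependent kinases, had 0.06, 0.34, −0.29 and 0.39.

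**Figure D2:**
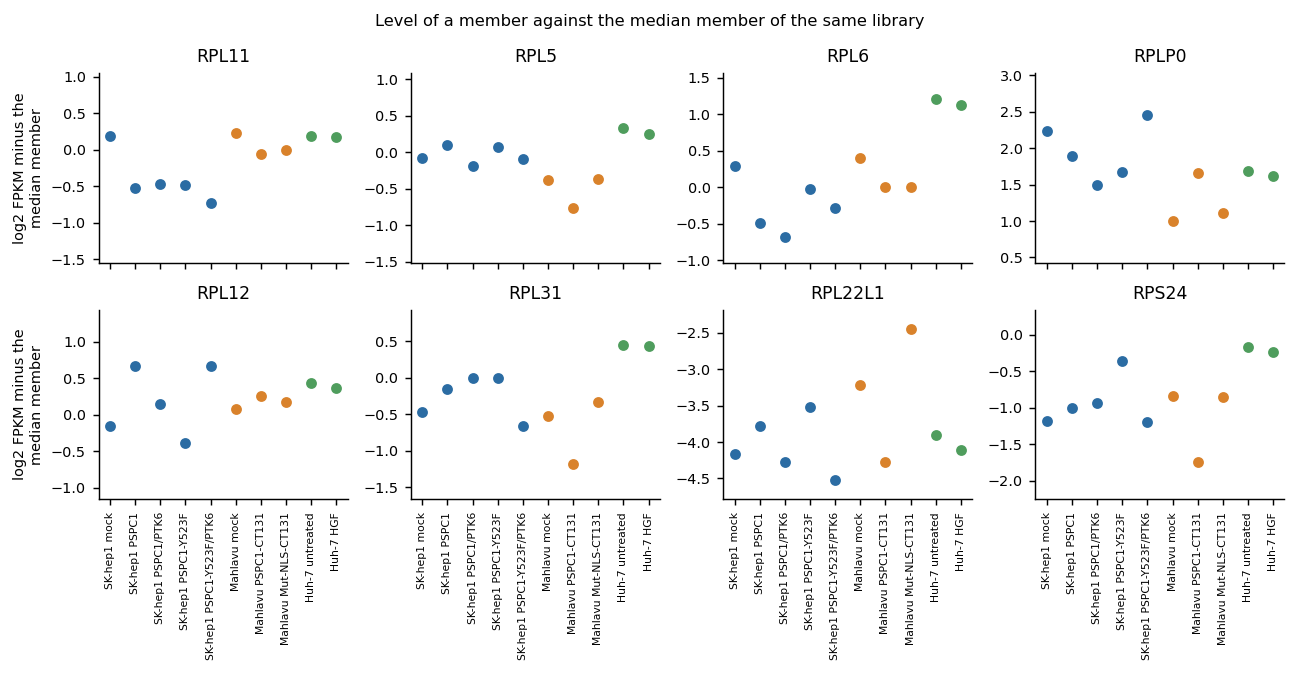
Log2 FPKM of 8 members minus that of the median member of the same library (81 members with a mean of at least 1 FPKM), for the 5 SK-Hep1 (blue), 3 Mahlavu (orange) and 2 Huh-7 libraries (green), 1 point per library. RPL11 lies lower in the 4 SK-Hep1 transfectants than in mock while RPL5 stays between −0.19 and 0.09 in all 5, and RPL22L1, RPL31 and RPS24 are lower in the library labelled PSPC1-CT131 than in the other 2 Mahlavu libraries.

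RPLP0 and RPL12 lie side by side at the base of the stalk, where translation factors bind. RPLP0 stood at 4027 FPKM in mock, 3199.6 with PSPC1, 2152 with PSPC1/PTK6, 2090.0 with PSPC1-Y523F and 3369 with PSPC1-Y523F/PTK6, with mock highest, and its log2 fold changes were −0.56, −0.76, −0.82 and −0.43. With TMM scaling they were −0.29, −1.08, −0.93 and −0.12, where the PSPC1-Y523F/PTK6 library came closest to mock. RPL12 (chromosome 9, 127447674 to 127451405) stood at 764 FPKM in mock, 1363 with PSPC1, 849 with PSPC1/PTK6, 501 with PSPC1-Y523F and 974 with PSPC1-Y523F/PTK6 and had the widest range of any member above 10 FPKM in SK-Hep1 cells, a ratio of highest to lowest of 2.72. RPLP1 was the steadiest of the members, at 1413 FPKM in mock, 1453 with PSPC1, 1387 with PSPC1/PTK6, 1154 with PSPC1-Y523F and 1450.4 with PSPC1-Y523F/PTK6, a ratio of 1.26. RPLP2 stood at 1341 FPKM in mock, 1071 with PSPC1, 1444 with PSPC1/PTK6, 835 with PSPC1-Y523F and 1225 with PSPC1-Y523F/PTK6, with PSPC1-Y523F lowest. The median ratio of highest to lowest over the 5 libraries was 1.55 for 81 members, and 6 had a ratio of at least 2.

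The libraries with and without PTK6 were also compared directly, for PSPC1 and for PSPC1-Y523F, in contrasts that share no library. Over PSPC1, the member median was −0.08 with quantile normalization and −0.39 with TMM scaling (0.00 for all genes), where 74 of 82 members were lower, 12 at least 1.5-fold (7.56% of all genes), and 0 were at least 1.5-fold higher (10.1%). With quantile normalization RPL22L1 was the single member at least 1.5-fold lower (−0.77, 7.34% of all genes tested), and 0 were at least 1.5-fold higher (8.09% of all genes). Over PSPC1-Y523F, the median was −0.05 and 0.21 on these scales, so the direction depended on the scale, and 8 of 81 were at least 1.5-fold lower (9.28% of all genes tested) and 4 at least 1.5-fold higher (10.4% of all genes). With TMM scaling 7 were at least 1.5-fold lower (7.97%) and 15 higher (13.3% of all genes). RPL12 had a log2 fold change of 0.87 for PTK6 over PSPC1-Y523F and of −0.58 for PTK6 over PSPC1, and it kept these directions under all 12 alternatives (0.86 to 1.07 and −0.93 to −0.57). RPL36 had 0.69 and −0.14 in the same order, RPL9 0.61 and −0.26, and RPLP0 0.39 and −0.20. The members at least 1.5-fold lower over PSPC1-Y523F under each alternative were RPL22L1 (−0.93), RPL26L1 (−0.71), RPS24 (−0.92), RPL31 (−0.74), RPL38 (−0.75) and RPL39 (−0.73). Over PSPC1, the values of RPL26L1, RPS24, RPL31, RPL38 and RPL39 were 0.00, −0.02, −0.01, 0.05 and 0.10. With 1 library per condition the difference between these contrasts could not be tested. PSPC1 also differed within both pairs, at 7.01 FPKM without and 26.4 with PTK6, and for PSPC1-Y523F at 2.28 without and 70.9 with PTK6, so differences that go with PTK6 and with the level of PSPC1 cannot be told apart.

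In Mahlavu cells, the library labelled PSPC1-CT131 had the lowest member median of all contrasts with quantile normalization. The median was −0.43 (−0.44 large, −0.39 small) against 0.01 for all genes, 77 of 81 members were lower than in mock, and 26 of 81 were at least 1.5-fold lower (12.3% of all genes tested) and 0 at least 1.5-fold higher (11.2% of all genes). The lower count was 32.1% of members. With TMM scaling the group lay at mock level. The median was then −0.02 against 0.02 for all genes, 43 of 81 members were lower, 9 were at least 1.5-fold lower (12.8% of all genes) and 0 higher (12.6%). In FPKM as deposited the median was −0.31 where that of all genes was −0.24. Reads on members as a share of all reads were 0.864 times those in mock. The 7 members that stayed at least 1.5-fold lower under all 12 alternatives were RPL7 (−1.58), RPS24 (−1.46), RPS27L (−1.33), RPL22L1 (−1.30), RPL31 (−1.23), RPL34 (−1.12) and RPL23 (−1.09), the same 7 that were at least 2-fold lower (3.16% of all genes).

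RPL7, which binds rRNA in the body of the large subunit, stood at 839.9 FPKM in mock, 327 in the library labelled PSPC1-CT131 and 613 in that labelled Mut-NLS-CT131. RPS24, a small subunit protein mutated in some patients with Diamond-Blackfan anaemia, stood at 317 FPKM in mock, 127 in the library labelled PSPC1-CT131 and 259 in that labelled Mut-NLS-CT131. RPL31, which lies beside the exit of the tunnel, stood at 395 FPKM in mock, 188 in the library labelled PSPC1-CT131 and 372 in that labelled Mut-NLS-CT131. RPL34 had 266, 131 and 239 FPKM and RPL23 259, 131 and 197 FPKM in the same order. For each of the 5, the library labelled PSPC1-CT131 was lowest, and that labelled Mut-NLS-CT131 lay between it and mock. RPL11 (−0.84), RPL6 (−0.96) and RPL5 (−0.93) were lower too, and with TMM scaling their values were −0.41, −0.52 and −0.50. RPLP0 had 0.09, and 0.54 with TMM scaling, and its direction changed among the alternatives (−0.06 to 0.57). RPL39L (0.24) was the highest member of this contrast.

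In this library the fold change of a member went with its base composition. Spearman's rho between the log2 fold change and the GC content of the longest principal transcript was 0.498 over 81 members and 0.570 over all genes, and −0.213 and −0.106 for Mut-NLS-CT131. RPL7 has a GC content of 43.1%, RPL34 of 41.9%, RPS27L of 43.3%, RPL22L1 of 42.6%, RPL23 of 44.1%, RPL31 of 46.7% and RPS24 of 47.6%, all below the member median of 49.3%. The 42 members below that median had a median log2 fold change of −0.59, all 42 of them lower than in mock, and the 39 others −0.31, with 35 lower. When a fit on the length and GC content of all genes was subtracted, rho over members was −0.01 and the member median −0.44. The 7 members named above stayed at least 1.5-fold lower in that fit. These points are genes of 1 pair of libraries and not replicates.

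The library labelled Mut-NLS-CT131 had a median of −0.31 (−0.30 large, −0.32 small, 0.00 all genes), with 76 of 81 members lower than in mock. Among members, 4 of 81 were at least 1.5-fold lower (11.3% of all genes tested) and 0 at least 1.5-fold higher (11.1% of all genes), both below the share of all genes. With TMM scaling the median was −0.10 (0.05 for all genes), 57 of 81 members were lower, 0 at least 1.5-fold lower (9.82% of all genes) and 1 at least 1.5-fold higher (11.6%). RPS19, the gene most often mutated in Diamond-Blackfan anaemia, was lowest, with 1128 FPKM in mock, 974 in the library labelled PSPC1-CT131 and 723 in that labelled Mut-NLS-CT131 and a log2 fold change of −0.83 (−0.49 with TMM scaling). RPL6 (−0.75), RPL26 (−0.66) and RPL7 (−0.62) followed. In SK-Hep1 cells RPS19 stood at 1499.9 FPKM in mock, 2216 with PSPC1, 1979.6 with PSPC1/PTK6, 1758 with PSPC1-Y523F and 2151 with PSPC1-Y523F/PTK6, with mock lowest. RPL22L1 (0.55) and RPL39L (0.35) were highest in Mut-NLS-CT131. Between both construct libraries, the member median of PSPC1-CT131 against Mut-NLS-CT131 was −0.12, 12 of 79 members were at least 1.5-fold lower (15.2% of all genes), 0 were at least 1.5-fold higher (14.9%), and with TMM scaling the median was 0.01, with 7 at least 1.5-fold lower (16.9%) and 0 higher (13.5%). RPL22L1, RPS27L, RPS24, RPL31 and RPL7 were at least 1.5-fold lower in this comparison under each alternative.

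In Huh-7 cells, the ribosomal proteins with HGF lay close to those without. The median log2 fold change was 0.05 (0.05 large, 0.06 small, 0.00 all genes) and 0.07 with TMM scaling. Of 83 members, 58 were higher and 19 lower, 0 were at least 1.5-fold lower (1.45% of all genes) and 0 at least 1.5-fold higher (1.81%). The largest values were those of RPS10 (0.35, on 10 and 15 reads) and RPL10L (0.26), which was listed at 0 in the 8 other libraries. RPS27L was lowest (−0.27), with 62.0 FPKM in untreated and 51.0 in HGF-treated Huh-7 cells and 1703 and 1303 reads, and RPL17 (−0.19) followed on 40 and 32 reads. Reads on members as a share of all reads were 1.04 times those in untreated cells (95% interval 1.04 to 1.05, counting error only). For 56 of 83 members the interval of the read ratio did not include 1, above it for 51 and below it for 5. These intervals cover counting error only and are narrow for genes with many reads. The same count over all genes is not given, so this count does not set the members apart from other genes.

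The members kept their levels relative to each other most closely in the Huh-7 pair. With each member set against the median member of its library, which no scaling factor changes, the interquartile range of the log2 differences over 81 members was 0.06 for HGF, 0.20 for Mut-NLS-CT131, 0.54 for PSPC1-CT131, and 0.33, 0.34, 0.47 and 0.54 for the SK-Hep1 contrasts with mock in the order above. All 81 members stayed within 0.5 of the median member with HGF, 77 with Mut-NLS-CT131, 65 with PSPC1-CT131 and 58 with PSPC1-Y523F/PTK6. All genes differed least in the Huh-7 pair too, with 1.45% at least 1.5-fold lower and 1.81% higher. In the contrasts with mock these shares were 7.1% to 12.8% and 8.19% to 12.4%. The same ranges over all genes are not given, so this order does not set the members apart from other genes. RPL35A was the member that kept its place best, within 0.158 over the 10 libraries.

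In each library 6 of the 7 paralogs stood at lower levels than the core genes they resemble, while RPL26L1 was above RPL26. RPL26 is among the low members described above, with a mean of 11.1 FPKM and 71.0% of its coding bases in another gene of the same strand. The part of this overlap in the order of RPL26 and RPL26L1 was not tested. RPL22L1 (ENSG00000163584, chromosome 3, 170864875 to 170870483) takes the place of RPL22 in the ribosome, and RPL22 is known to repress it. In Mahlavu cells RPL22L1 stood at 61.2 FPKM in mock, 22 in the library labelled PSPC1-CT131 and 85.6 in that labelled Mut-NLS-CT131, on 1229, 386 and 1446 reads. The log2 fold changes were −1.30 and 0.55, in opposite directions, and −1.47 to −0.98 and 0.48 to 0.64 over the alternatives. RPL22 stood at 230.2 FPKM in mock, 131 in the library labelled PSPC1-CT131 and 184 in that labelled Mut-NLS-CT131 there and had log2 fold changes of −0.89 and −0.40 (−0.51 and −0.17 with TMM scaling). In SK-Hep1 cells RPL22L1 stood at 47.6 FPKM in mock, 62.6 with PSPC1, 39.5 with PSPC1/PTK6, 57.1 with PSPC1-Y523F and 26.9 with PSPC1-Y523F/PTK6. RPL22 stood there at 251 FPKM in mock, 281 with PSPC1, 366 with PSPC1/PTK6, 240.2 with PSPC1-Y523F and 177 with PSPC1-Y523F/PTK6. RPL22 was thus highest with PSPC1/PTK6, and both genes were lowest with PSPC1-Y523F/PTK6. In GENCODE 29, 59.9% of the coding bases of RPL22 lie in a non-coding gene of the same strand.

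RPS27L, the paralog of RPS27, stood in Mahlavu cells at 50.3 FPKM in mock, 17.1 in the library labelled PSPC1-CT131 and 49.4 in that labelled Mut-NLS-CT131. RPS27 had 799, 544 and 667 FPKM in the same order, a smaller difference. RPL26L1, the near copy of RPL26, stood in SK-Hep1 cells at 122 FPKM in mock, 76.3 with PSPC1, 80.2 with PSPC1/PTK6, 108 with PSPC1-Y523F and 62.5 with PSPC1-Y523F/PTK6, with mock highest. Its log2 fold changes there were −0.62, −0.62, −0.16 and −0.87. RPL7L1, a ribosome assembly factor that resembles RPL7, stood between 64.9 FPKM (Mut-NLS-CT131) and 147 FPKM (PSPC1-Y523F). RPL39L, the testis form of RPL39, was detected in each library, between 32.8 FPKM (PSPC1-Y523F) and 72.1 FPKM (Mut-NLS-CT131), and was higher in the 3 Mahlavu libraries than in the other 7. RPL3L, the muscle form of RPL3, had 1 to 10 reads per library, where RPL3 had a mean of 2374 FPKM. RPL10L, the testis form of RPL10, was listed at 0 in the SK-Hep1 and Mahlavu libraries and at 0.903 and 1.29 FPKM in Huh-7. RPL10 itself stood in SK-Hep1 cells at 1013 FPKM in mock, 1375 with PSPC1, 1275 with PSPC1/PTK6, 1224 with PSPC1-Y523F and 1379.7 with PSPC1-Y523F/PTK6, with mock lowest. Named pseudogenes, 1598 copies of 78 members, took 0.413 to 1.12 reads per 100 reads on members, and reads shared between near-identical copies could fall on either.

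Other genes of the translation machinery that carry TOP mRNAs were read beside the members. Of 22 such genes (elongation and initiation factors, poly-A binding proteins, nucleolar proteins and others), 21 were tested. Their median log2 fold changes were −0.14 with PSPC1, −0.10 with PSPC1/PTK6, −0.62 with PSPC1-Y523F, −0.32 with PSPC1-Y523F/PTK6, −0.52 with PSPC1-CT131, −0.25 with Mut-NLS-CT131 and 0.03 with HGF. With PSPC1-Y523F, 11 of 21 were at least 1.5-fold lower (9.33% of all genes) and 0 higher (9.33%), 11 of 21 were lower with TMM scaling (11.1% of all genes), and the median ran from −0.66 to −0.52 under the alternatives. RACK1, a protein of the small subunit that the symbol rule does not take, had −0.97 (−1.08 with TMM scaling). The initiation factors EIF4B (−1.04) and EIF3F (−0.97), the elongation factor EEF2 (−0.94), NACA (−0.89), which meets new chains at the ribosome, and TPT1 (−0.73) were among the lower ones. In the library labelled PSPC1-CT131, 10 of 21 were at least 1.5-fold lower (12.3% of all genes), and 4 with TMM scaling (12.8%), where the median was −0.13. EIF3E (−1.47) and the nucleolar protein NPM1 (−1.34) were lowest there. EEF1A1, the main elongation factor, had 0.14, 0.33, −0.46 and −0.37 in the SK-Hep1 contrasts, and with PSPC1/PTK6 its direction turned with TMM scaling (−0.09).

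The 10 snoRNA host genes with a TOP start had medians between −0.58 (PSPC1-CT131) and 0.16 (PSPC1/PTK6). All 10 were lower than in mock with PSPC1-Y523F/PTK6 (median −0.50, −0.42 with TMM scaling) and in the library labelled PSPC1-CT131 (−0.47 with TMM scaling, where 9 of 10 were lower). The median of all genes was −0.04 with PSPC1-Y523F/PTK6 and 0.01 with PSPC1-CT131, and the share of all genes lower than in mock is not given here. RPL36AL, the retrogene of RPL36A, had −0.82 with PSPC1-Y523F. The 7 paralogs had medians between −0.73 (PSPC1-CT131) and 0.28 (PSPC1-Y523F) over the 5 or 6 tested, and 15 members chosen for a known role between −0.46 (PSPC1-CT131) and 0.06 (HGF). The 77 mitochondrial ribosomal proteins had medians between −0.23 (PSPC1/PTK6) and −0.02 (HGF), with 14 of 75 at least 1.5-fold lower in the library labelled PSPC1-CT131 (12.3% of all genes). With TMM scaling 8 of 76 were (12.8%). In the other 6 contrasts with mock or untreated cells the highest count of mitochondrial ribosomal proteins was 8 of 77, with PSPC1/PTK6 (12.8% of all genes), and in each of the 6 their share was below that of all genes or within 1 percentage point of it. The 17 genes of TOP and translation control had medians between −0.18 (PSPC1-CT131) and 0.09 (PSPC1-Y523F). In the library labelled PSPC1-CT131, the medians of the mitochondrial ribosomal proteins (−0.08) and of TOP and translation control (−0.18) turned to 0.06 and 0.01 with TMM scaling. LARP1, which binds the TOP start, had −0.78 with PSPC1, −0.71 with PSPC1/PTK6, −0.14 with PSPC1-Y523F and −0.77 with PSPC1-Y523F/PTK6. The 11 chaperones and assembly factors of single ribosomal proteins had medians between −0.44 (PSPC1/PTK6) and −0.14 (PSPC1-Y523F), below 0 in each of the 7 contrasts with mock or untreated cells and under each alternative. Of these 11, BRIX1 and RPF2 had −0.67 and −0.80 with PSPC1 and −1.25 and −0.80 in the library labelled PSPC1-CT131. Single values of the other genes of this list are not given. CDKN1A was higher than in the control in the library labelled PSPC1-CT131 (1.37), in that labelled Mut-NLS-CT131 (1.08) and with HGF (0.56).

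Among the members with a promoter entry, the median log2 fold change with PSPC1-Y523F was −0.14 for 47 members with the tract and −0.38 for 19 without. With PSPC1-Y523F/PTK6 it was −0.32 for 46 members with the tract and −0.33 for 19 without. In the library labelled PSPC1-CT131 it was −0.47 for 46 members with the tract and −0.38 for 19 without. Of the 10 members at least 1.5-fold lower with PSPC1-Y523F, RPL11, RPLP0, RPL27A, RPS14, RPL12, RPL21 and RPL36 carry the tract, and RPL6, RPS29 and RPL9 do not at their annotated starts. Of all 67 members with a promoter entry, 47 (70.1%) carried it, a share close to that among these 10.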

How the data were processed

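RNA-Seq of 10 libraries was read from gene tables. Per the labels, RNA was selected on poly-T beads and libraries were made with a NEBNext Ultra kit that keeps no strand, while the study's methods state rRNA depletion, so the selection is not settled. The submitters' processing notes name TopHat2 2.0, HTSeq 0.6.1, edgeR and the genome GRCh38.p12, and the study's methods name an older human build. The deposited tables gave whole read counts and FPKM for 8 libraries and FPKM alone for both Huh-7 libraries, where the authors' values were whole multiples of 1 read for 100% of genes within 0.05 of a read, and reads were recovered from them. The FPKM as deposited were not quantile normalized, although the methods name this step, and it was done here jointly for the 8 libraries of SK-Hep1 and Mahlavu and separately for the 2 of Huh-7. Lines that held no gene (8 per table) were left out.

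Differences were log2 ratios of quantile-normalized FPKM + 1 for genes whose mean over the contrast reached 1 FPKM. No test was possible with 1 library per condition, and the 1.5-fold and 2-fold thresholds are descriptions. The members and all gene lists (mitochondrial ribosomal proteins, paralogs, other TOP mRNAs, snoRNA host genes, TOP and translation control, chaperones, members chosen for a known role, and hepatocyte markers) were chosen with earlier results of these data known. Named genes were the 2 members with the largest differences each way in every contrast and between the lines, the 3 of highest and 3 of lowest mean level, the paralogs with their pairs and the listed genes, to which members at least 1.5-fold apart were added after their values were seen. TMM factors came from edgeR 4.0.16 in R 4.3.3, and all else was computed in Python 3.11.15 with pandas 2.3.3 and scipy 1.17.1. Gene lengths were recovered from counts and FPKM, overlaps and GC content taken from GENCODE 29, and promoters from RefSeq tables of GRCh38.p14. Some genes and gene lists are not reported here. Reads on genes ranged from 15245935 to 24278662. The 95% intervals of read ratios are exact and cover counting error only. The computations were tested on simulated counts. The 12 alternatives were FPKM as deposited, FPKM scaled to an equal sum with and without the mitochondrial genome, quantile normalization within each line, pseudocounts of 0.1 and 5, no filter, a mean of at least 5 FPKM, read counts scaled by TMM or by median ratios, pseudogene reads added to the parent, and gene length and GC content taken out by a quadratic fit.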

Additional observations from a re-analysis of the deposited data

How the results depend on the processing

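Of the 120 values that the 12 alternatives gave for the member median in 10 contrasts, 94 lay within the 95% order-statistic interval of the median over members and 26 outside it. This interval treats the members as independent, which genes of the same libraries are not. It is a yardstick for the scaling only and does not measure the spread of a condition. The sign of the median changed in 8 of the 120 values, of which 5 were for PTK6 over PSPC1-Y523F, 1 for PSPC1-CT131 and 2 for PSPC1-CT131 against Mut-NLS-CT131. With TMM scaling the median was 0.17 for PSPC1, −0.24 for PSPC1/PTK6, −0.019 for PSPC1-CT131, −0.10 for Mut-NLS-CT131, 0.069 for HGF, −0.39 for PTK6 over PSPC1, 0.21 for PTK6 over PSPC1-Y523F and 0.0063 for PSPC1-CT131 against Mut-NLS-CT131, where the large subunit was at 0.0019. With median-ratio scaling it was 0.17, −0.28, 0.0098 (large subunit 0.014, small subunit 0.0061), −0.093, −0.42, 0.19 and 0.025 (large subunit 0.021) in that order without HGF, and −0.17 for PSPC1-Y523F/PTK6. In FPKM as deposited it was −0.29 for PSPC1-Y523F, −0.31 for PSPC1-CT131, −0.26 for Mut-NLS-CT131 and 0.061 for HGF. Scaled to an equal sum, PSPC1-CT131 was at −0.32 and Mut-NLS-CT131 at −0.26, and without the mitochondrial genome PSPC1 was at 0.13, PSPC1-CT131 at −0.34, Mut-NLS-CT131 at −0.26 and HGF at 0.062. The cause was not tested. The count of members at least 1.5-fold lower was within 1.5 times its main value in 100 of 120 cases.

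With 1 library per condition, leaving out a replicate was not possible, and biological spread within a condition was not measured. No paired analysis was possible because the labels give no replicate numbers and each condition has 1 library. The ratios of RPS10, RPL17, RPL36A, RPL3L and RPL10L rest on few reads.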
